A study of Mus musculus with 8 samples.

Results

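The 10 genes described here are core and general pluripotency genes of mouse embryonic stem (ES) cells: Pou5f1, Sox2, Utf1, Sall4, Zfp281, Dppa2, Dppa4, Dppa5a, Rif1 and Trim28. They were taken by symbol, as the probe sets that the array annotation assigns to exactly 1 of these symbols. That rule uses no measured change, but the list of symbols was chosen with earlier results of these data known. All 10 were measured, among 18193 genes on the array, with 19 of the 34945 probe sets that carry a single gene symbol. Where a gene has several probe sets, the one that is brightest on average across the arrays is its main probe set and stands for the gene. The study asked what the histone demethylases Jmjd2b and Jmjd2c do for ES cell identity. RNA was hybridised to 8 Affymetrix arrays, 1 per sample: 3 of cells with a hairpin RNA against Jmjd2b, 2 of cells with a hairpin against Jmjd2c and 3 control arrays of cells with a hairpin against GFP. All groups were male ES cells of strain 129S4/Svjae, with the phenotype agouti in the labels, kept in LIF medium. All carried a lentivirus and had gone through puromycin selection and further passages, so the controls share the infection and the selection with the knockdowns. The labels do not say whether samples of a group came from separate infections or cultures, so the p-values speak of the spread from sample to sample, part of which may be technical.

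Pou5f1, which encodes OCT4, and Sox2 encode transcription factors that bind DNA together and are required to keep ES cells pluripotent. In mouse cells both are also present in the primed state that follows the naive state of ES cells, whereas factors such as Klf4, Esrrb and Tfcp2l1 mark the naive state more narrowly. Around them work further DNA-binding factors (Sall4, Zfp281), chromatin-bound proteins of early embryo and germ cells (Utf1, Dppa2, Dppa4), an RNA-binding protein (Dppa5a), and broadly expressed chromatin regulators (Rif1, Trim28). JMJD2 enzymes remove methyl groups from lysines of histone H3, and the array annotation lists their genes as Kdm4b and Kdm4c.

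The array medians lay within a narrow band, 44.7 to 46.6, far below the intensities of the main probe sets of the 10 genes. The mean intensity was lowest in control array 1, at 441, and was 452 to 470 in the other arrays. Values are given as deposited intensities, without further normalization. They are linear and cannot be compared between probe sets. The targeted transcripts were low in their own knockdown. Kdm4b read 50.3, 29.3 and 17.0 in the Jmjd2b knockdown, 245 and 285 in the Jmjd2c knockdown and 421, 339 and 643 in the controls. Kdm4c read 752, 800 and 650 in the Jmjd2b knockdown, 142 and 469 in the Jmjd2c knockdown and 1332, 1300 and 1210 in the controls. Each knockdown thus also read lower for the other enzyme's transcript than any control array. Neither of these differences passed the limma test used below. The log2 change of Kdm4b in the Jmjd2c knockdown was -0.74 ± 0.31 (SE; limma adjusted p = 0.178). That of Kdm4c in the Jmjd2b knockdown was -0.79 ± 0.32 (limma adjusted p = 0.102). Of all genes, 21.2% lay wholly below the controls in the Jmjd2c knockdown and 23.8% in the Jmjd2b knockdown. The arrays fall into 3 sets by how their values were deposited. Control arrays 1 and 2 and Jmjd2b array 2 (set 1) have 412 to 455 values of exactly 1, and the other 5 arrays have no such floor. Among those 5, control array 3 and Jmjd2b array 1 share 0.448% of their values exactly (set 2), and Jmjd2b array 3 and both Jmjd2c arrays share 0.588% to 0.605% (set 3), against at most 0.0776% for pairs across sets. The sources used here do not say what these sets stand for. No control lies in set 3, so the Jmjd2c knockdown and its set cannot be told apart in the comparison with controls. With the set as a block, each Jmjd2c change against control rests on Jmjd2b array 3, the only other array of set 3.

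In the Jmjd2b knockdown, Sall4 and Zfp281 rose, Sox2 and Dppa5a fell, and Pou5f1 stayed within 0.10 of the control level on the log2 scale by its 95% interval. By the fitted means the rises were 25.8% for Sall4 and 19.6% for Zfp281, Sox2 fell by 15.6% and Dppa5a fell by 20.7%. A call is an adjusted p under 0.05 in limma, with adjustment over all genes. By it 2 of the 10 genes were higher and 2 lower in the Jmjd2b knockdown, where 11.5% of all genes were called higher and 12.9% lower, 24.4% in all. The Jmjd2c knockdown had 0 of the 10 called, where 4.28% of all genes were called higher and 5.25% lower, 9.53% in all. For 5 of the 10 the unadjusted limma p was under 0.05 in that comparison, as for 23.9% of all genes. Pou5f1, Utf1, Dppa2, Dppa4, Rif1 and Trim28 were called in neither knockdown. The median absolute log2 change of the 10 genes was 0.19 in the Jmjd2b and 0.18 in the Jmjd2c knockdown, beside 0.23 and 0.20 over all genes. The median SE was 0.078 and 0.087 for the 10 genes, beside 0.15 and 0.17 over all genes. An absolute change grows with its error, so these medians do not show that the 10 genes changed less than others. The median signed change was 0.04 and 0.12, beside -0.03 and -0.02 over all genes. The count of 4 in the Jmjd2b knockdown was 2 without control array 1, control array 3, Jmjd2b array 2 or Jmjd2b array 3, and 0 when the variance prior had no trend with level. The count of 0 in the Jmjd2c knockdown was 1 without control array 2, Jmjd2b array 2, Jmjd2b array 3 or Jmjd2c array 1. The fit leaves out the replicate number. With that number as a block, Zfp281 was not called in the Jmjd2b knockdown and Sall4 was called in the Jmjd2c knockdown.

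**Figure D1:**
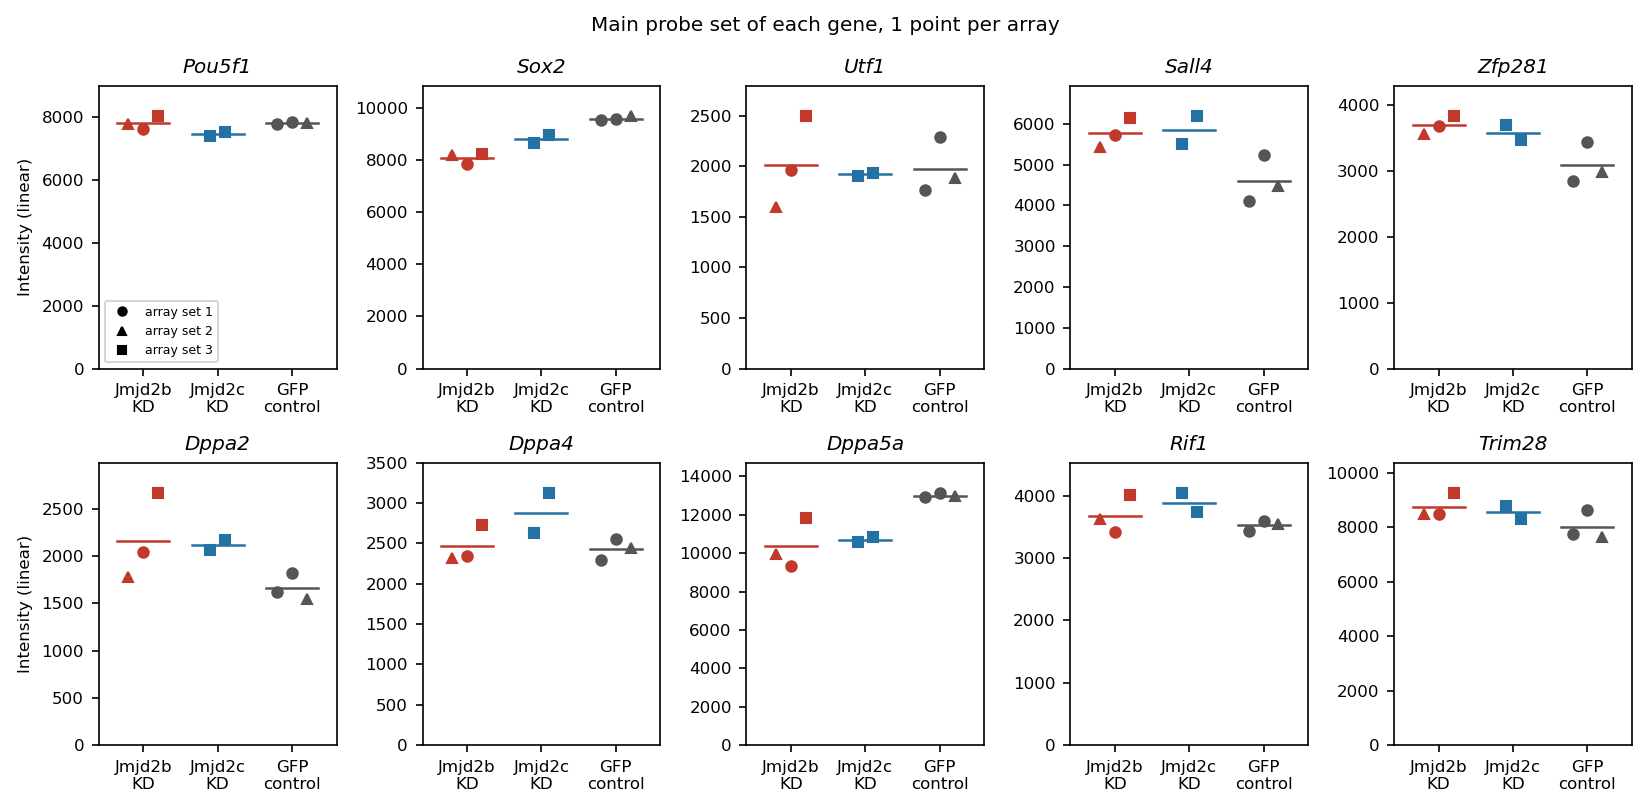
Intensity of the main probe set of each of the 10 genes, linear from 0 on each vertical axis, with 1 point per array, a line at each group mean, and the point's shape giving the set of arrays. Sox2 and Dppa5a lie lower in every knockdown array than in every control array, and Sall4 and Zfp281 lie higher in every knockdown array than in every control array.

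In bulk RNA, fewer cells of a type and less RNA per cell cannot be told apart, and markers of other states moved in the same arrays. The summed intensity of 6 primed epiblast markers was 10632 to 21569 in Jmjd2b knockdown arrays, 6531 to 12603 in Jmjd2c knockdown arrays and 2812 to 4022 in control arrays. All 6 were called higher in the Jmjd2b knockdown and 3 in the Jmjd2c knockdown, and Fgf5 averaged under 16 in the controls. The sum of 8 ES cell markers, none of them among the 10 genes, was 22850 to 23924 in Jmjd2b arrays, 26337 to 28023 in Jmjd2c arrays and 33710 to 35526 in control arrays. Of the 8, 7 were called lower in the Jmjd2b and 4 in the Jmjd2c knockdown. All 8 are also in the list of other pluripotency genes below, so their calls are counted in both places. The trophectoderm sum of 7 markers was 5885 to 6926 in Jmjd2b arrays, 3636 to 4788 in Jmjd2c arrays and 3600 to 4154 in control arrays, with 4 called higher and 1 lower in the Jmjd2b and 1 higher in the Jmjd2c knockdown, and Cdx2 and Gata3 averaged under 16 in the controls. The sum of 12 fibroblast markers, the cells of a feeder layer, was 762 to 818 in Jmjd2b arrays, 755 to 866 in Jmjd2c arrays and 917 to 996 in control arrays, with 2 called each way in the Jmjd2b knockdown and 1 higher and 2 lower in the Jmjd2c knockdown. Of these, Col1a1, Postn and Twist1 averaged under 16 in the controls. The median log2 change of the 12 was 0.01 in the Jmjd2b and 0.12 in the Jmjd2c knockdown, unlike the lower sums. Each such sum, here and below, is led by its brightest probe sets. The ratio of 3' to 5' actin probe sets, a measure of RNA integrity, was 1.42, 1.36 and 1.31 in the Jmjd2b arrays, 1.48 and 1.43 in the Jmjd2c arrays and 1.63, 1.45 and 1.56 in the control arrays. The same ratio for Gapdh overlapped between groups, at 0.987, 0.974 and 0.937 in the Jmjd2b arrays, 0.987 and 0.943 in the Jmjd2c arrays and 0.980, 0.970 and 0.936 in the control arrays. The part of cell state and of RNA integrity in the changes of the 10 genes was not tested.

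No link between start region sequence and the changes was tested. As a description, the start regions of 3 of these genes are printed, for a gene that fell, a gene that rose and a gene that did not pass the test. They are Sox2 (chr3:34649745-34650044), Zfp281 (chr1:136624651-136624950) and Pou5f1 (chr17:35505782-35506081), all on the + strand of GRCm38.p6 and taken from RefSeq, from 250 bases before to 50 after the start. Capitals mark the GC box GGGCGG, read on either strand, a motif bound by SP and KLF family factors.
Sox2: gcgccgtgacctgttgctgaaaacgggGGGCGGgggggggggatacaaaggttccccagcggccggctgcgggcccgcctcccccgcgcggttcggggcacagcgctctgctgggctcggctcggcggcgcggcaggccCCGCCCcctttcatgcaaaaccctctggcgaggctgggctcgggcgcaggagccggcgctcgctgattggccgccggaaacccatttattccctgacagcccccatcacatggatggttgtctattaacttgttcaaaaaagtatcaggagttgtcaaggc
Zfp281: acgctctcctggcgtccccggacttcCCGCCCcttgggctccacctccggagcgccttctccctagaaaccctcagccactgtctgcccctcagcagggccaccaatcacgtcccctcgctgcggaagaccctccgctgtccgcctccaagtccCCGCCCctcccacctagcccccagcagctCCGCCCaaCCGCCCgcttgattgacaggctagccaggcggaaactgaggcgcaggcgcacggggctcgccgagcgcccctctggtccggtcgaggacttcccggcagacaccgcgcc
Pou5f1: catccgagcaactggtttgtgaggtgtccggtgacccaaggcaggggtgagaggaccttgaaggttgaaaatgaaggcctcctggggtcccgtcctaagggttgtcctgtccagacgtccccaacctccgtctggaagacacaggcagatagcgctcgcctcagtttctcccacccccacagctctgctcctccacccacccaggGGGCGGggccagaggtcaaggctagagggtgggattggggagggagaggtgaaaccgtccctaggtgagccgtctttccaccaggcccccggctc
RefSeq windows were at hand for 5 of the 10 genes, 6 windows in all. The GC box was in 5 of the 6, against 35.7% of all 32851 windows of that length. Those 5 windows hold 62.0% to 70.7% G and C, and the 1 without the box, the second of Pou5f1, holds 45.7%. A GC-rich window matches these letters more readily, and the part of base composition was not tested. The plan named only the octamer and the SOX core, and the GC box was added to them. The octamer ATGCAAAT, the letters bound by OCT4, was in 0 of the 6 and in 1.74% of all windows, and the SOX core CATTGTT was in 1 of the 6, the second window of Pou5f1, and in 3.78% of all windows. These are matches of letters on both strands, not sites.

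Pou5f1 passed the test in neither knockdown. Its intensity was 7784, 7639 and 8038 in the Jmjd2b knockdown, 7410 and 7536 in the Jmjd2c knockdown and 7784, 7870 and 7832 in the controls. The Jmjd2b arrays spread to both sides of the controls, and both Jmjd2c arrays lay just below them. The log2 change was -0.0018 ± 0.045 in the Jmjd2b knockdown (SE; 95% interval -0.10 to 0.10; limma adjusted p = 0.984). In the Jmjd2c knockdown it was -0.07 ± 0.050 (95% interval -0.18 to 0.05; limma adjusted p = 0.477).

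Sox2, the partner of OCT4 on DNA, fell in the Jmjd2b knockdown. It had 8226, 7853 and 8247 in the Jmjd2b knockdown, 8683 and 8971 in the Jmjd2c knockdown and 9542, 9592 and 9698 in the controls. The 3 groups did not overlap, with the Jmjd2b arrays lowest, the Jmjd2c arrays between and the controls highest. Group means were 84.4% and 91.8% of the control mean in the Jmjd2b and Jmjd2c knockdowns. The log2 change was -0.25 ± 0.044 in the Jmjd2b knockdown (SE; limma adjusted p = 0.00318), and it was -0.28 within set 1 and -0.24 within set 2. In the Jmjd2c knockdown it was -0.12 ± 0.049, with a limma adjusted p of 0.160 and no call.

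Utf1, a chromatin-associated factor of pluripotent cells that Oct4 and Sox2 are known to activate, varied more among the Jmjd2b knockdown arrays and among the controls than between the group means. It read 1595, 1960 and 2493 in the Jmjd2b knockdown, 1906 and 1934 in the Jmjd2c knockdown and 1764, 2285 and 1879 in the controls, and all groups overlap. Its log2 change was 0.01 ± 0.15 in the Jmjd2b and -0.03 ± 0.17 in the Jmjd2c knockdown, and a change of 0.33 downward in the first lies within the 95% interval. Neither was called (limma adjusted p = 0.963 and 0.945).

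Sall4, a zinc finger factor that binds with OCT4 and with the NuRD repressor complex, rose in the Jmjd2b knockdown. Its intensity was 5441, 5736 and 6154 in the Jmjd2b knockdown, 5493 and 6184 in the Jmjd2c knockdown and 4115, 5227 and 4478 in the controls. Every knockdown array was above every control array, and the gap was small because control array 2 stood well above the other 2 controls. The log2 change was 0.33 ± 0.093 in the Jmjd2b knockdown (SE; limma adjusted p = 0.0266), with 0.31 within set 1 and 0.28 within set 2. In the Jmjd2c knockdown it was 0.35 ± 0.10, a change of the same size, with a limma adjusted p of 0.0656. The Jmjd2b call was lost without control array 1 (0.25), control array 3 (0.31), Jmjd2b array 2 (0.34) or Jmjd2b array 3 (0.28), and with array type (values floored at 1 or not) or set as a block (limma adjusted p = 0.0529 and 0.130). The Jmjd2c change was called without control array 2 (0.44) or Jmjd2c array 1 (0.43), and was 0.22 with the set as a block.

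Zfp281, a zinc finger factor that binds GC-rich DNA and in mouse ES cells is known to restrain Nanog and to promote the exit to the primed state, rose in the Jmjd2b knockdown. It had 3557, 3681 and 3824 in the Jmjd2b knockdown, 3688 and 3466 in the Jmjd2c knockdown and 2849, 3435 and 2979 in the controls. Here too every knockdown array lay above every control array, and control array 2 came close to the lowest Jmjd2c array. The log2 change was 0.26 ± 0.081 in the Jmjd2b knockdown (SE; limma adjusted p = 0.0429), with 0.23 within set 1 and 0.25 within set 2. The change in the Jmjd2c knockdown was 0.22 ± 0.091 (limma adjusted p = 0.182). The Jmjd2b call was lost without control array 1 (0.20), control array 3 (0.24) or any 1 of the Jmjd2b arrays (0.28, 0.26 and 0.23), and with blocks. The limma adjusted p was 0.0634 with the replicate number, 0.0682 with array type and 0.152 with the set of arrays as a block. In all the call was lost in 11 of the 22 alternatives, some of them not named here.

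Dppa2 and Dppa4, neighbours on chromosome 16, encode related DNA-binding proteins that act as a pair in early embryos and ES cells. Dppa2 had 1776, 2045 and 2674 in the Jmjd2b knockdown, 2071 and 2176 in the Jmjd2c knockdown and 1622, 1826 and 1548 in the controls. The Jmjd2b arrays overlapped the controls through array 1, and the Jmjd2c arrays lay above them. Its log2 change was 0.36 ± 0.14 and 0.35 ± 0.15 in the Jmjd2b and Jmjd2c knockdowns, neither called (limma adjusted p = 0.0899 and 0.20). The first was 0.49 and called without Jmjd2b array 1, 0.20 and not called without Jmjd2b array 3, and 0.23 with the set of arrays as a block. With that block the second turned to -0.11, a value that rests on Jmjd2b array 3. Dppa4 had 2321, 2343 and 2727 in the Jmjd2b knockdown, 2628 and 3126 in the Jmjd2c knockdown and 2287, 2551 and 2443 in the controls, with changes of 0.02 ± 0.096 and 0.24 ± 0.11. The Dppa4 arrays of the Jmjd2b knockdown overlap the controls and those of the Jmjd2c knockdown do not, and neither change was called. The Dppa4 change in the Jmjd2c knockdown was 0.36 without Jmjd2c array 1, 0.12 without Jmjd2c array 2 and 0.014 with the set of arrays as a block.

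Dppa5a, which encodes an RNA-binding protein of ES cells and germ cells, fell in the Jmjd2b knockdown and had the largest fall of the 10 genes there. It read 9963, 9320 and 11828 in the Jmjd2b knockdown, 10567 and 10846 in the Jmjd2c knockdown and 12911, 13151 and 12959 in the controls. All knockdown arrays were below all controls, and Jmjd2b array 3 was the nearest to them. The log2 change was -0.33 ± 0.075 in the Jmjd2b knockdown (SE; limma adjusted p = 0.00978), with -0.48 within set 1 and -0.38 within set 2. The change in the Jmjd2c knockdown was -0.28 ± 0.084 (limma adjusted p = 0.0658). The Jmjd2c change was called without Jmjd2b array 2 or Jmjd2b array 3, at the same size of -0.28, since those arrays enter only through the shared estimate of spread, and it was -0.58 with the set of arrays as a block, not called.

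Rif1, which protects telomeres and heterochromatin and times DNA replication, and Trim28, the corepressor that recruits the H3K9 methyltransferase SETDB1 to silence retroviral elements, did not pass the test. Rif1 read 3618, 3414 and 4005 in the Jmjd2b knockdown, 4047 and 3732 in the Jmjd2c knockdown and 3433, 3587 and 3551 in the controls, with log2 changes of 0.06 ± 0.075 and 0.14 ± 0.084. Trim28 read 8485, 8471 and 9265 in the Jmjd2b knockdown, 8792 and 8294 in the Jmjd2c knockdown and 7743, 8632 and 7624 in the controls, with changes of 0.13 ± 0.063 and 0.10 ± 0.070. The Rif1 arrays of the Jmjd2c knockdown lie above the controls, and the groups overlap in the other 3 of these comparisons. The limma adjusted p for Trim28 was 0.178 and 0.464 in the Jmjd2b and Jmjd2c knockdowns. With the set of arrays as a block the Jmjd2c changes turned to -0.054 for Rif1 and -0.022 for Trim28, and without Jmjd2c array 1 that of Rif1 was 0.083.

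**Figure D2:**
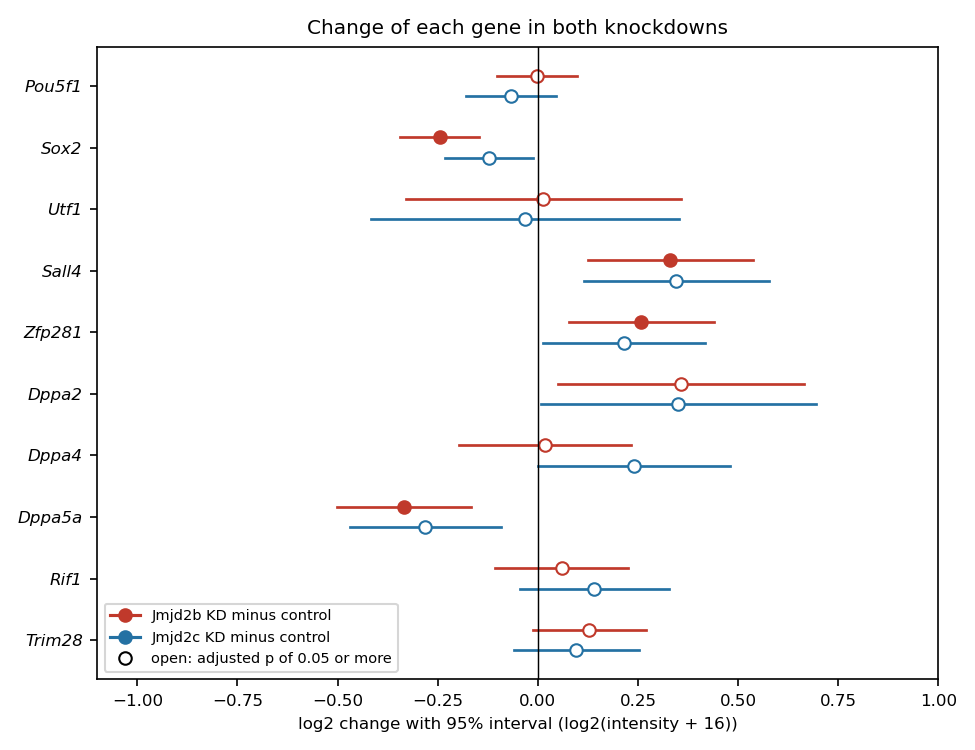
Log2 change of each of the 10 genes against the GFP control on the log2(intensity + 16) scale, with the 95% interval from limma, Jmjd2b knockdown above Jmjd2c knockdown for each gene. Filled points passed the adjusted p threshold, 2 higher and 2 lower, all in the Jmjd2b knockdown.

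Counted over arrays, 2 of the 10 genes lay wholly above the controls and 2 wholly below them in the Jmjd2b knockdown, where 20.9% of all genes lay above and 23.8% below, 44.8% in all. With 2 arrays against 3 in the Jmjd2c knockdown, 5 lay above and 3 below, where 17.4% of all genes lay above and 21.2% below, 38.6% in all. Pou5f1, Sox2 and Dppa5a are the 3 below, and Sall4, Zfp281, Dppa2, Dppa4 and Rif1 are the 5 above. The 2 comparisons share the control arrays, so a control array that is low or high moves both.

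Set directly against each other, Jmjd2c minus Jmjd2b, the 10 genes differed by -0.07 to 0.22 on the log2 scale. None was called by limma, where 0.467% of all genes were, and for Sox2 alone the unadjusted limma p was under 0.05, as for 13% of all genes. Sox2 was 0.12 ± 0.049 higher in the Jmjd2c than in the Jmjd2b knockdown (limma adjusted p = 0.327). Its Jmjd2c arrays lay above its Jmjd2b arrays, and those of Pou5f1 lay below, where 13.4% of all genes lay above and 13.7% below, 27.1% in all. Dppa4 had the largest difference, 0.22 ± 0.11, with overlapping arrays, and it was 0.35 without Jmjd2c array 1 and 0.096 without Jmjd2c array 2. Over the 10 genes the 95% intervals reached as far as 0.46 on the log2 scale, the upper end for Dppa4. Those of Pou5f1 (-0.18 to 0.047) and Sox2 (0.012 to 0.23) were narrower. Within set 3, where Jmjd2b array 3 stands beside both Jmjd2c arrays, Dppa2 differed by -0.33, Utf1 by -0.37, Dppa4 by 0.071 and Sox2 by 0.10.

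**Figure D3:**
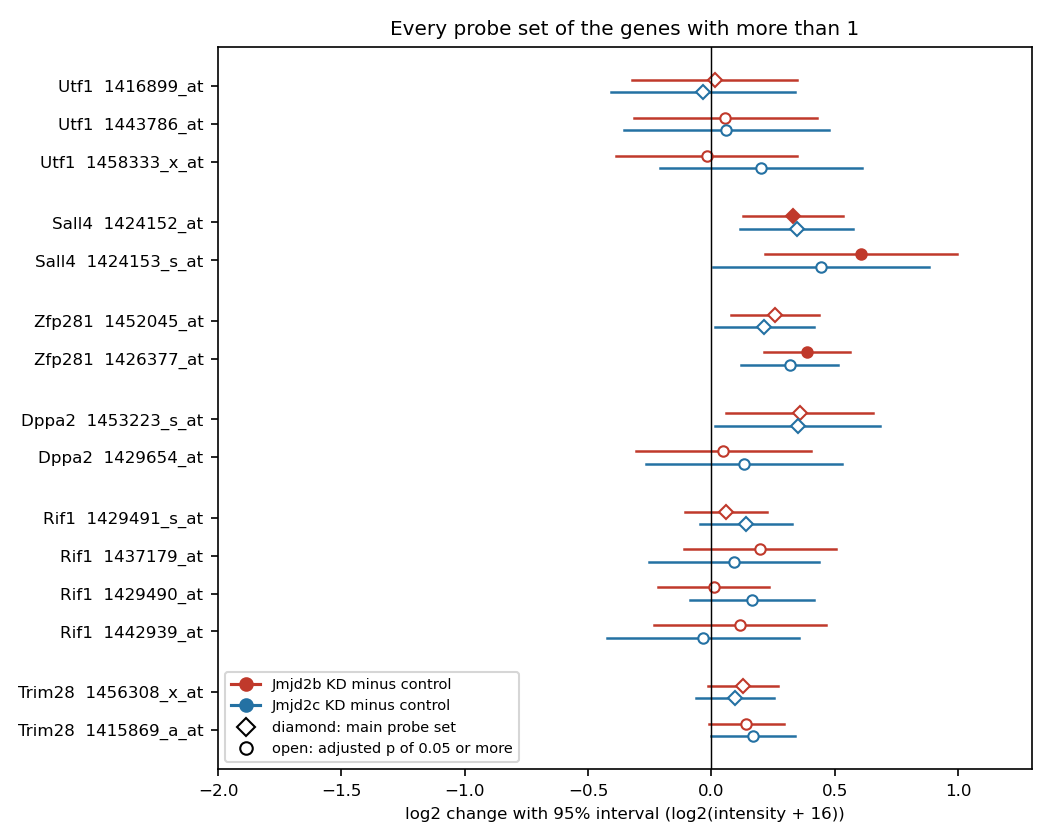
Log2 change against the GFP control with its 95% interval for every probe set of the 6 genes that have more than 1, Jmjd2b knockdown above Jmjd2c knockdown, on the log2(intensity + 16) scale and adjusted over all probe sets. The second probe sets of Sall4 and Zfp281 lie further from 0 than the first, and that of Dppa2 lies near 0.

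Utf1, Sall4, Zfp281, Dppa2, Rif1 and Trim28 have 9 further probe sets. In a fit of all probe sets, where 17.3% were called in the Jmjd2b knockdown and 5.74% in the Jmjd2c knockdown, 2 of these 9 were called higher in the Jmjd2b knockdown and 0 in the Jmjd2c knockdown. The second probe set of Sall4 averaged 1287 ± 328 in the Jmjd2b knockdown, 1131 ± 155 in the Jmjd2c knockdown and 830 ± 131 in the controls (SD, n = 3, 2 and 3). Its log2 change was 0.61 ± 0.18 in the Jmjd2b knockdown (SE; limma adjusted p = 0.0382) and 0.45 ± 0.20 in the Jmjd2c knockdown (limma adjusted p = 0.249). The second probe set of Zfp281 averaged 2219 ± 131 in the Jmjd2b knockdown, 2111 ± 30.9 in the Jmjd2c knockdown and 1692 ± 74.8 in the controls (SD, n = 3, 2 and 3), a change of 0.39 ± 0.079 in the Jmjd2b knockdown (limma adjusted p = 0.00729). For Zfp281 the main probe set had a limma adjusted p of 0.0521 in this fit. The second probe set of Dppa2 changed by 0.05 ± 0.16 and 0.13 ± 0.18 in the Jmjd2b and Jmjd2c knockdowns, far less than its main one. Of the 9 further probe sets 8 had the sign of the main one in the Jmjd2b and 6 in the Jmjd2c knockdown. The main probe sets of Dppa2, Rif1 and Trim28 carry suffixes that mark probes shared by several transcripts. So do the second probe set of Sall4 and the dimmest of Utf1. Levels and changes read from these probe sets are uncertain to that extent.

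Other genes of the pluripotency network had larger median changes than these 10, a difference that was not tested. Of 34 listed, 33 were measured, and 7 were called higher and 19 lower in the Jmjd2b knockdown, and 3 higher and 11 lower in the Jmjd2c knockdown, beside 24.4% and 9.53% of all genes called. Their median log2 change was -0.45 and -0.22, beside -0.03 and -0.02 over all genes. By the fixed rule the 4 with the smallest p were Klf4, Esrrb, Tet2 and Prdm14. Klf4, a naive-state factor, averaged 2182 ± 324 in the Jmjd2b knockdown, 2749 ± 6.84 in the Jmjd2c knockdown and 6357 ± 419 in the controls (SD, n = 3, 2 and 3). Prdm14, a repressor that guards the naive state, averaged 246 ± 46.2 in the Jmjd2b knockdown, 663 ± 10.2 in the Jmjd2c knockdown and 862 ± 149 in the controls (SD, n = 3, 2 and 3). The 2 knockdowns differed for Prdm14, by 1.39 ± 0.19 on the log2 scale (Jmjd2c minus Jmjd2b, limma adjusted p = 0.0190). Esrrb and the DNA demethylase gene Tet2 changed by -1.53 and -2.09 in the Jmjd2b and by -0.93 and -1.40 in the Jmjd2c knockdown, all called.

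Among 15 measured partners of OCT4 and SOX2, 5 were called higher and 6 lower in the Jmjd2b knockdown, and 0 higher and 2 lower in the Jmjd2c knockdown, beside the same 24.4% and 9.53% of all genes. Sox15, a SOX factor that can pair with OCT4, averaged 153 ± 39.7 in the Jmjd2b knockdown, 223 ± 17.5 in the Jmjd2c knockdown and 510 ± 59.8 in the controls (SD, n = 3, 2 and 3). Sall1, the relative of Sall4, averaged 1860 ± 106 in the Jmjd2b knockdown, 2732 ± 234 in the Jmjd2c knockdown and 2762 ± 119 in the controls (SD, n = 3, 2 and 3). Its change in the Jmjd2b knockdown was -0.57 ± 0.082 (SE; limma adjusted p = 0.00103), opposite in sign to that of Sall4, and the knockdowns differed by 0.55 ± 0.092 (Jmjd2c minus Jmjd2b, limma adjusted p = 0.0359). Nr6a1, a nuclear receptor known to repress Pou5f1 in differentiating cells, changed by 1.04 ± 0.17 in the Jmjd2b knockdown (SE; limma adjusted p = 0.00166), beside a Pou5f1 change of -0.0018. Nr5a2, a nuclear receptor known to activate it, changed by -0.66 ± 0.11 (limma adjusted p = 0.00170). Nr5a2 and Zscan10 of this list are also among the other pluripotency genes, and Pou3f1 is also a primed epiblast marker.

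Of 17 partners of TRIM28 and parts of the NuRD complex, all measured, 4 were called higher and 1 lower in the Jmjd2b knockdown and 0 in the Jmjd2c knockdown, where 24.4% and 9.53% of all genes were called. The share in the Jmjd2b knockdown is thus near that of all genes. The median change was 0.12 in each, beside -0.03 and -0.02 over all genes. Rbbp7 and Gatad2a, subunits of NuRD, changed by 0.40 ± 0.059 and 0.38 ± 0.082 in the Jmjd2b knockdown (SE; limma adjusted p = 0.00114 and 0.00749). The main probe sets of both carry the suffixes that mark shared probes. Zfp57, the zinc finger protein that brings TRIM28 to imprinted regions, was the 1 that fell, by 0.75 on the log2 scale (limma adjusted p = 0.0145), at a level of 75.7 ± 12.9 in the Jmjd2b knockdown and 137 ± 9.56 in the controls (SD, n = 3). It is also in the list of other pluripotency genes. Of 12 genes that Dppa2 and Dppa4 are known to activate in cells resembling the 2-cell embryo, 5 were measured and none was called by limma in any comparison. Zfp352, Tcstv1 and Tcstv3 averaged under 16 in all groups, a level at which changes are understated.

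**Figure D4:**
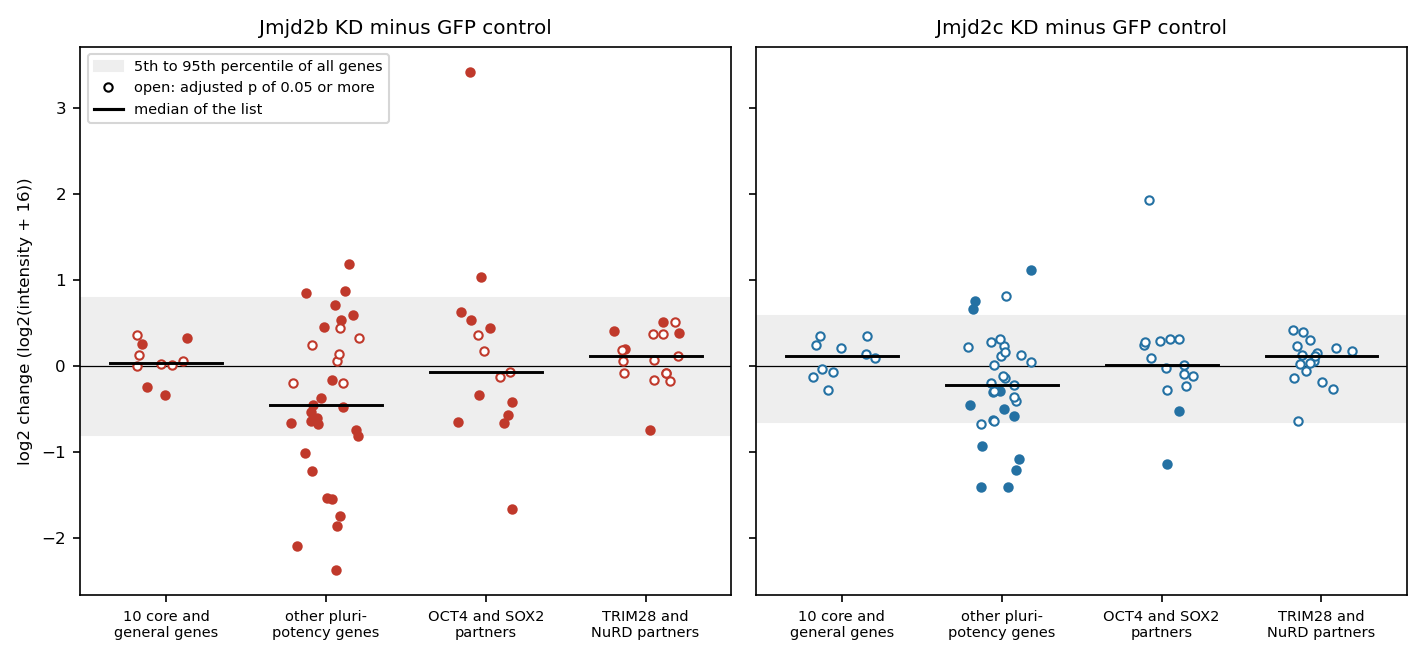
Log2 change against the GFP control of the 10 genes and of 3 lists of related genes, 1 point per gene on the log2(intensity + 16) scale, Jmjd2b knockdown on the left and Jmjd2c knockdown on the right, with a line at each list's median and a band from the 5th to the 95th percentile of all genes. The 10 genes lie within the band in both panels, and the other pluripotency genes have medians of -0.45 and -0.22. The band covers all genes, whose median SE is larger than that of the 10 genes.

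The 3 genes with the widest range of group means were Dppa2, Sall4 and Dppa5a. Over the 8 arrays, and among 9086 genes above the median level, the patterns closest to Dppa5a by Pearson correlation of log2 values were those of Mios (0.993), Hpcal1 (0.992) and Poc5 (0.987). The closest to Sall4 were Plxnb1 (0.987), Lrrc47 (0.983) and Phax (0.982). The closest to Dppa2 were Cdh4 (0.954), Eprn (0.949) and Ltbp4 (0.940), and 1 gene exceeded 0.95 for Dppa2, against 57 for Sall4 and 38 for Dppa5a. The points share arrays, sets of arrays and groups, and these are the highest values of a search, given as a description.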

How the data were processed

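The deposited values are linear intensities, 1 per probe set and array, in 8 single-channel arrays. Biotinylated cRNA was made from total RNA, per the labels' protocols. The sources used here leave out the authors' probe summary, background correction and scaling. The platform annotation gave 1 symbol for 34945 of 45101 probe sets. Chromosomes and promoter windows come from RefSeq (GRCm38.p6). Intensities were analysed as log2(value + 16), a scale on which dim genes change less than in truth, with no further normalization and no filter. The probe set with the highest average log2 value stood for each of 18193 genes. All 8 arrays entered 1 fit in limma 3.58.1 (R 4.3.3; lmFit, eBayes with trend), two-sided, with Benjamini-Hochberg adjustment over all genes at 0.05. The number of arrays limits the precision. The fit was tested on simulated data. Tables and figures used Python 3.11.15, pandas 2.3.3 and matplotlib 3.10.9.

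The members, lists and tests were chosen with earlier results of these data known. Named are all 10 members, up to 4 genes of each list with the smallest unadjusted p in either knockdown, the 3 most similar genes of the 3 members with the widest range of group means, the targets Kdm4b and Kdm4c, and the markers Fgf5 and Cdx2. Deviations from group means of same-numbered control and Jmjd2b knockdown arrays correlated across genes at 0.176, 0.111 and 0.116. Unlike-numbered control and Jmjd2b knockdown arrays gave -0.127 to 0.0164, all below the same-numbered pairs. The labels state no pairing, so a pairing by number would rest on the data alone. The main fit holds no replicate term, and pairing by number entered only as the replicate block among the alternatives. Same-numbered control and Jmjd2c knockdown arrays gave 0.0422 and 0.064. Same-numbered Jmjd2b and Jmjd2c arrays gave -0.0596 and 0.141, while Jmjd2b array 3 with Jmjd2c array 1, unlike in number, gave 0.166. With 2 Jmjd2c arrays the deviations are equal and opposite, so each such value recurs with its sign reversed for the other Jmjd2c array. The Jmjd2c values thus say little about pairing. Alternatives covered the pseudocount, scaling, dim genes, choice of probe set, groups fitted, variance prior, array weights, replicate block, array type (arrays with over 300 values exactly 1 against the others) and set as blocks, and each array left out.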

Additional observations from a re-analysis of the deposited data

How the results depend on the processing

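Under 22 alternatives the log2 changes of the 10 genes gave 660 values, of which 579 kept direction and side of the threshold, 20 lost the call, 11 gained one and 50, all of them called in neither setting, changed sign. The lost calls, all in the Jmjd2b knockdown, were 11 for Zfp281, 7 for Sall4 and 1 each for Sox2 and Dppa5a. Not all of the 11 settings are named below. For Sox2 and Dppa5a the call was lost only without the trend in the variance prior. The number of called genes in the Jmjd2b knockdown, 4, was 0 without that trend, 2 (Sox2 and Dppa5a) with array type as a block, 2 (the same genes) with the set of arrays as a block, 3 with the replicate block, and 2 to 4 with 1 array left out. In the Jmjd2c knockdown, where it was 0, it was 2 with quantile normalization, 2 among genes above the median level, 1 with only the compared groups fitted, 1 with the replicate block, and 0 to 1 with 1 array left out. Between the knockdowns it was 0 throughout. The replicate block changed the call of Zfp281 in the Jmjd2b knockdown and of Sall4 in the Jmjd2c knockdown and no other.

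The signs that changed were mostly of changes under 0.10, but with the set as a block they included those of Dppa2 (0.35) and Rif1 (0.14) in the Jmjd2c knockdown. With that block the Jmjd2c changes against control rest on Jmjd2b array 3, the only other array in the set of the Jmjd2c arrays. Jmjd2b minus control gave Dppa4 -0.039 and Utf1 -0.032 with quantile normalization, Utf1 -0.0044 with median centring, Dppa4 -0.024 and Utf1 -0.060 with array weights, Dppa4 -0.00089 with array type as a block, and Dppa4 -0.057, Rif1 -0.011 and Utf1 -0.12 with the set as a block. Jmjd2c minus control gave Utf1 0.077 with the mean of all probe sets and 0.034 with the replicate block, and Dppa2 -0.11, Rif1 -0.054 and Trim28 -0.022 with the set as a block. Jmjd2c minus Jmjd2b gave Dppa2 0.015 with quantile normalization, 0.016 with median centring, 0.063 with array weights, 0.049 with the replicate block and 0.0028 with array type as a block. It gave Dppa2 0.038, Rif1 -0.0051, Sall4 -0.074 and Utf1 0.060 with the mean of all probe sets, and Dppa2 0.084, Rif1 -0.11 and Trim28 0.026 without probe sets of shared probes. It gave Utf1 0.027 with array weights and 0.020 with the replicate block, and Dppa5a -0.14, Rif1 -0.043 and Sall4 -0.078 with the set as a block. With 1 array left out, Jmjd2b minus control ranged from -0.056 to 0.060 for Dppa4, -0.022 to 0.015 for Pou5f1, -0.0035 to 0.11 for Rif1 and -0.15 to 0.17 for Utf1, and Jmjd2c minus control from -0.11 to 0.076 for Utf1. Jmjd2c minus Jmjd2b ranged from -0.14 to 0.15 for Dppa2, -0.020 to 0.15 for Dppa5a, -0.071 to 0.10 for Sall4, -0.074 to 0.010 for Trim28, -0.20 to 0.12 for Utf1 and -0.088 to 0.0011 for Zfp281. The cause was not tested.

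Over all genes the number called in the Jmjd2b knockdown, 4441, was 2624 without control array 3 and 2747 without Jmjd2b array 2. In the Jmjd2c knockdown, 1733 became 6 with the set as a block, 1043 with array type as a block, 874 with only the compared groups, 879 with array weights, 853 without control array 1, 462 without control array 3 and 2919 without Jmjd2c array 1. Between the knockdowns, 85 (25 higher, 60 lower) ranged from 2 to 788 over the alternatives, and with quantile normalization it was 114 (50 higher, 64 lower). Array number, 2 in the Jmjd2c knockdown, limits all of these.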

Other observations

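Within the Jmjd2b group and the controls, 1 array held the highest value for most of the 10 genes. Jmjd2b array 3 was the highest of its group for 10 of 10, where it was the highest for 38.4% of all genes and 42.2% of genes above the median level. Jmjd2c array 2 was the higher of its group for 7 of 10, where it was for 52.2% of all genes and 59.2% of those above the median level. With only 2 arrays in that group, this count is near the share among genes above the median level. Control array 2 was the highest of its group for 9 of 10, where it was for 35.1% of all genes and 41.3% of those above the median level. Each of these arrays had the lowest actin 3' to 5' ratio of its group (1.31, 1.43 and 1.45) and the highest mean intensity (470.2, 466 and 464). The Gapdh ratio was also lowest in Jmjd2b array 3 and Jmjd2c array 2 (0.937 and 0.943), but among controls it was lowest in array 3 (0.936), with 0.970 in array 2. After quantile normalization, an alternative chosen after seeing the data, the counts were 10, 6 and 6, where these arrays were the highest for 36.1%, 49.3% and 32.2% of all genes. The part of RNA integrity or scaling in this was not tested.

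Primitive endoderm markers, 8 in the list, summed to 4177 to 4967 in Jmjd2b knockdown arrays, 2710 to 3262 in Jmjd2c knockdown arrays and 2397 to 2652 in control arrays, with 3 called higher in the Jmjd2b and 1 in the Jmjd2c knockdown, and Foxa2 and Afp averaged under 16 in the controls. Neural markers, 6 in the list, summed to 895 to 1183 in Jmjd2b arrays, 876 to 1184 in Jmjd2c arrays and 797 to 909 in control arrays, with 3 called higher in the Jmjd2b and 1 in the Jmjd2c knockdown, and Zic1 averaged under 16 in the controls. Of 5 measured mesoderm markers the sum was 198 to 409 in Jmjd2b arrays, 151 to 207 in Jmjd2c arrays and 156 to 175 in control arrays, with 1 called higher in the Jmjd2b and 0 in the Jmjd2c knockdown, and Mixl1 averaged under 16 in the controls.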
